A study of Homo sapiens with 12 samples.

Results

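Gained H3K27ac regions are stretches of chromatin with a peak of acetylated histone H3 lysine 27 in both libraries of cabozantinib-resistant Caki-1 cells and in neither library of the parental line. They were selected on presence or absence of a peak in the 4 deposited peak lists, and 1718 of the 48074 merged regions on chromosomes 1, 4, 5, 8, 11, 13 to 18, 20 and 21 met that rule (3.57%). The whole genome held 89076 merged regions. Presence of a peak chose the members, so their number, their scores and their absence from the parental lists are given as a description with no test.

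The series holds 12 samples, of which 4 are H3K27ac libraries, 2 per line; the 4 inputs and the 4 RNA libraries were not analysed here. Caki-1 is a long-established line of human kidney cancer, and its parental cells were grown in RPMI 1640. The resistant cells were derived from it in McCoy's 5A medium with cabozantinib, an inhibitor of MET, AXL and VEGF receptor kinases, starting at 5 µM and reaching 20 µM over 2 months, and were then held at 10 µM. Medium, drug and selection therefore differ together between the lines and cannot be told apart, and the labels name neither clones nor separate cultures for the replicates. Peak names in the list of resistant replicate 1 begin with Caki_CaboR20 and those of resistant replicate 2 with CaboR, a difference the labels do not explain.

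H3K27ac is laid down by the acetyltransferases p300 and CBP and removed by histone deacetylases. It marks active promoters and active enhancers, and separates active enhancers from those that carry H3K4 monomethylation alone. Narrow peaks often sit at single regulatory elements, while dense groups of peaks close together form the broad domains called super-enhancers or stretch enhancers, which are common around genes of cell identity. The gene nearest to a region is not given, since no gene positions in hg19, the build of the peak lists, were used; for the same reason the identity of the line was not checked against marker genes.

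The lists differed between replicates as well as between lines. The parental lists had 54810 and 57975 peaks, the resistant ones 52367 and 52856, and the read depth behind them is unknown. Peaks were narrower in replicate 1 of both lines, with medians of 674 bp (parental) and 604 bp (resistant), than in replicate 2, with 924 and 1041 bp. On the 13 chromosomes peaks covered 29.7 and 44.7 Mb in the parental libraries and 26.4 and 47.7 Mb in the resistant ones. Covered length thus split the libraries by replicate number, not by line.

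Agreement between the resistant libraries set the size of the gained class. Of 14017 regions with a resistant and no parental peak, 5944 were in the list of replicate 1 alone, 6355 in that of replicate 2 alone and 1718 in both, which is 12.3%. The reverse class, regions lost from the resistant line, numbered 1606, or 3.34% of the merged regions on these chromosomes, and 11.9% of the regions with a parental and no resistant peak were in both parental lists. The balance of both classes moved with the settings: with the same number of best peaks per list there were 1879 gained and 1332 lost regions, and with scores of 5 or more 1102 and 847. The same number meant 52367 peaks, the length of the shortest list, so peaks were dropped mainly from the longer parental lists. On the chromosomes outside the 13, 3.26% of 41002 regions were gained and 4.61% lost. A further 2313 regions on the 13 chromosomes had peaks in both resistant lists and in 1 parental list, 981 of them in parental replicate 1 and 1332 in parental replicate 2. The count is sensitive to each library: without parental replicate 1 or 2 the rule gave 2722 or 3173 gained regions, and with a single resistant list, without replicate 1 or 2, it gave 8204 or 8667.

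Gained regions were mostly weak peaks of their own lists. The deposited score is the authors' own value per peak, and its meaning is not given in the sources used here. It is read here mainly as a percentile within a list, 100 being the highest score. Raw scores are also printed, and 1 alternative setting uses a fixed score of 5. Whether scores of different lists share a scale is not known, and their medians were 6.70 and 6.29 (parental) and 6.31 and 7.48 (resistant). The median gained region stood at the 39.7th percentile of resistant replicate 1 (score 5.30, quartiles 3.81 and 7.22) and at the 34.9th percentile of resistant replicate 2 (score 5.53, quartiles 3.84 and 7.69). Regions present in all 4 lists stood at medians of 77.4 and 80.8 in the same lists, and regions of 1 resistant list at 23.7 and 21.3. Lost regions stood at medians of 31.7 and 39.3 in parental replicates 1 and 2, so low ranks were not particular to gained regions. In 874 gained regions (50.9%) both scores were under the 50th percentile, in 247 (14.4%) both were over it, and in 20 (1.16%) both were over the 75th, compared with 44.4% of the regions in all 4 lists. Across the members the percentiles in both lists were weakly related (Spearman's rho 0.26 over 1718 regions that share their libraries, a description).

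A parental-free region of 1 resistant list was found in the other more often the higher its score was. Among peaks in the lowest score quintile of resistant replicate 1, 419 of 2975 regions (14.1%) were also in replicate 2, and in the highest quintile 77 of 109 (70.6%). Starting from resistant replicate 2 the shares were 488 of 3506 (13.9%) and 22 of 30 (73.3%). Strong parental-free peaks were thus few, and most of them were found in both resistant libraries, whereas weak ones were many and mostly found in 1.

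**Figure D1:**
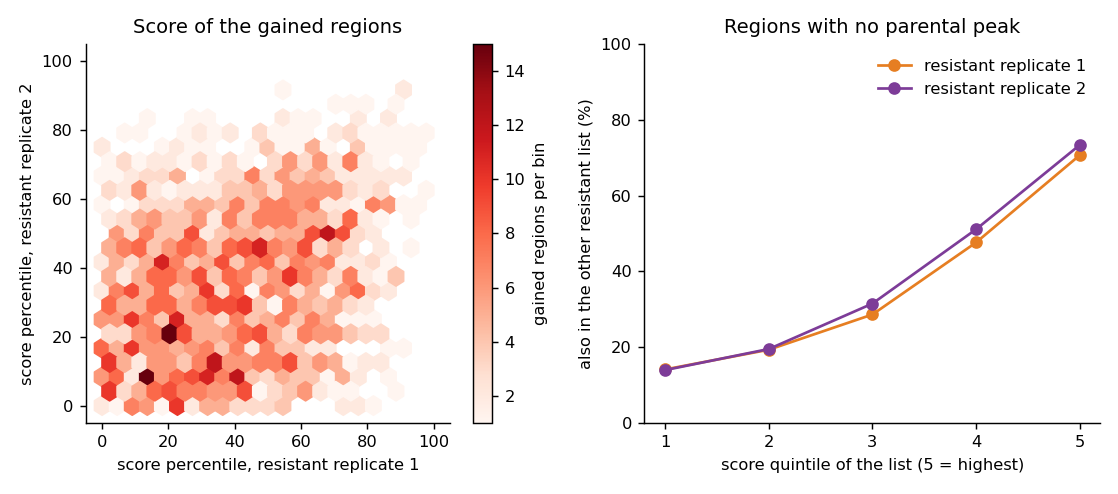
Left, score percentile of the 1718 gained regions in resistant replicate 1 (x axis) and replicate 2 (y axis), shaded by the number of regions per bin. Right, for regions with no parental peak, the share also found in the other resistant list, by score quintile of the list; it goes from about 14.1% and 13.9% in the lowest quintile to 70.6% and 73.3% in the highest.

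By the weaker of both percentiles, the highest gained region was chr1:38367395-38371555, which is 4161 bp wide. It stood at the 91.9th percentile in resistant replicate 1 (score 19.7) and the 91.1st in replicate 2 (score 32.5), and its nearest parental peak was 38.5 kb away. The next was a narrow region of 404 bp, chr15:100346652-100347055, at percentiles of 92.8 and 90.3 and 72.5 kb from a parental peak. These 2 were the only gained regions with both scores over the 90th percentile. The region chr1:153755380-153756306 followed at percentiles of 86.5 and 87.6, with peaks of 289 bp in replicate 1 and 927 bp in replicate 2. On chromosome 8 the highest was chr8:126566084-126571632, at 86.6 and 85.2, and it is also among the widest gained regions. On chromosome 16 the region chr16:67217598-67218121, 524 bp wide, stood at 87.3 and 83.6, and chr16:67693602-67695225 at 79.0 and 83.8. These strong regions were therefore both wide and narrow.

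Of the other regions among the 10 highest, chr1:202935215-202937035 stood at percentiles of 82.0 and 80.1, and its peaks of 1097 and 1185 bp shared 461 bp. The region chr1:235043470-235045887 stood at 96.0 in replicate 1 and 79.1 in replicate 2. On chromosome 5, chr5:1326575-1329810 stood at 78.6 and 89.7 with another gained region 206 bp away. The region chr18:42259097-42259703 stood at 88.7 and 77.7 and lay 40.2 kb from a parental peak. Among the 10 highest, scores of the same region ranked up to 16.9 percentile points apart in both lists.

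On the chromosomes with none of the 10 highest regions, the leading members had weaker percentiles from 63.5 to 75.8. They were chr4:6095444-6098290 (173 kb from any parental peak), chr11:77299586-77300947, chr13:67851352-67853740, chr14:23125397-23128021, chr17:62404474-62406755, chr20:49338128-49339584 and chr21:39677793-39684553. The chromosome 13 region lay 776 kb from any region in all 4 lists and 3840 kb from another gained region, but 18.6 kb from a parental peak. By comparison, the chromosome 17 region lay 268 bp from a parental peak and the chromosome 20 region 1181 bp. Leading members thus lay at distances of 268 bp to 173 kb from a parental peak.

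At the threshold of the rule, the gained regions with the lowest weaker percentile were chr8:67451347-67452061 (score 2.04 in resistant replicate 1, 4.97 in replicate 2), chr4:967548-968107 (3.12 and 2.02) and chr5:167524451-167525348 (2.11 and 10.6), the last being 1 of 5 regions tied at that percentile. The lowest score in any list is 2.00. Just outside stood regions with both resistant peaks and 1 weak parental peak. In chr11:118757681-118759734 the parental replicate 2 peak scored 2.01 and the resistant peaks 8.25 and 8.12, and in chr1:144570979-144571882 and chr1:197926457-197928377 the parental replicate 1 peak scored 2.03. Over the 2313 regions with 1 parental peak, that peak stood at a median percentile of 42.8 within its list.

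Width separated gained regions from shared ones and hardly from lost ones. The merged width of gained regions had a median of 983.5 bp (quartiles 715 and 1376, range 370 to 6761), and that of lost regions a median of 1000 bp (733 and 1392, 376 to 5514). Regions in all 4 lists had a median of 2706 bp and regions in 1 resistant list one of 491 bp. Merged width grows with the number of lists merged, so each library's own peaks were compared too. Peaks within gained regions had a median of 533 bp in resistant replicate 1 and 765.5 bp in replicate 2, against 1258 and 2195 bp in regions of all 4 lists and 413 and 564 bp in regions of 1 resistant list. The order of the 3 classes was the same in both resistant libraries, and the gap between the libraries was wider than that between gained and lost regions.

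**Figure D2:**
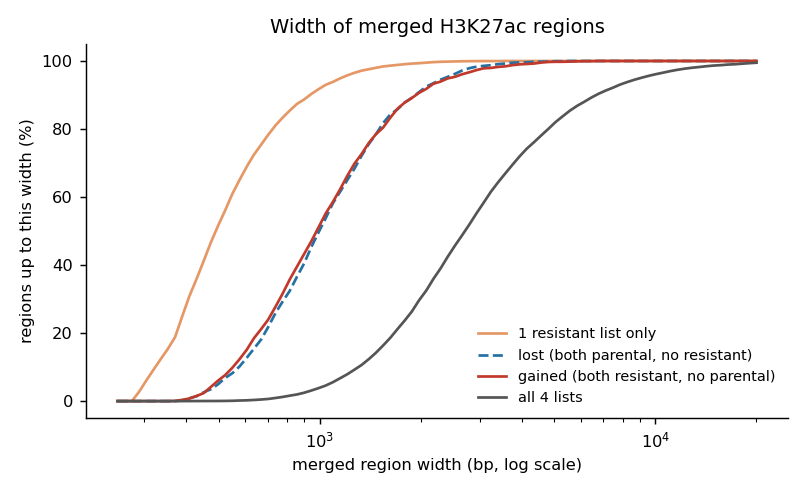
Share of merged regions (y axis, %) up to each width (x axis, bp, log scale) for 4 classes of region on the 13 chromosomes. The curves of gained and lost regions lie together with medians of 983.5 and 1000 bp, between regions of 1 resistant list (491 bp) and regions of all 4 lists (2706 bp).

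Most gained regions were simple. In 1595 (92.8%) each resistant list held 1 peak, and the replicate 2 peak was the wider in 1250 (72.8%), as it was for peaks of these libraries in general. The shared part of both peaks had a median of 403 bp, which is 96.2% of the shorter, and in 747 regions (43.5%) the shorter was covered whole. In 249 (14.5%) less than 50% of the shorter peak was shared, and the smallest overlap was 1 bp. Width and weaker percentile were weakly related across members (rho 0.29 over 1718 regions, a description).

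A total of 155 gained regions (9.02%) were over 2000 bp wide and 16 were over 4000 bp. The widest, chr21:39677793-39684553, was 6761 bp long and was 1 peak in resistant replicate 2 and 2 peaks of 2105 bp together in replicate 1. The second, chr13:91539940-91545808, was 5869 bp long, with 4 peaks of 2137 bp together in replicate 1 and 5534 bp in replicate 2. The remaining 3 of the 5 widest were all on chromosome 8, within 154 kb of each other. They were chr8:126453660-126459379 (5720 bp), chr8:126566084-126571632 (5549 bp) and chr8:126602615-126607466 (4852 bp). In these 3 the resistant libraries were closer in covered length (4187 and 5597 bp, 4860 and 5220 bp, and 3272 and 3493 bp) than in the chromosome 21 and chromosome 13 regions.

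Many gained regions lay near a parental peak, though no such gap is given here for other classes of region. The gap to the nearest parental peak had a median of 3523 bp and a minimum of 3 bp; it was up to 500 bp in 226 regions (13.2%), up to 5 kb in 993 (57.8%) and over 50 kb in 109. A region of all 4 lists lay within 12.5 kb of 909 gained regions (52.9%, median gap 11.2 kb), of 48.6% of lost regions (13.4 kb) and of 51.1% of regions in 1 resistant list (11.9 kb). Nearness to shared regions was thus not particular to gained ones. At the far end, 195 gained regions (11.4%) and 14.6% of lost regions were over 100 kb from any region of all 4 lists. The merged width had a median of 996 bp in gained regions over 100 kb away and 983 bp in those within 12.5 kb, while their own peaks differed in opposite directions: 497 and 560 bp in resistant replicate 1, and 896 and 732 bp in replicate 2. Under a rule that a list must cover 50% of the region, the shares within 12.5 kb were 23.3% of gained, 20.8% of lost and 20.9% of 1-list regions, with 3574 regions of all 4 lists in place of 10753. No test over regions was made.

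Most gained regions stood alone, and some lay close to another. The gap to the nearest other gained region had a median of 71.8 kb (quartiles 12.97 and 271 kb), and for lost regions it was 102 kb. Linking gained regions with gaps up to 12.5 kb, the distance often used to stitch peaks into super-enhancers, left 1295 alone and put 423 (24.6%) into 183 clusters, of which 143 held 2 regions, 28 held 3, 8 held 4, 3 held 5 and 1 held 6. Lost regions, similar in number, had 19.9% of members in 136 clusters, the largest of 7. Clustered gained regions had a median width of 1062 bp and those alone 957 bp. Links of 5 and 50 kb put 15.7% and 43.8% of gained regions within reach of another. At 12.5 kb the share was 13.8% for scores of 5 or more, and 46.7% and 57.3% of the larger gained classes left without resistant replicate 1 and 2.

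Neighbours were also counted without regard to distance. The next merged region on either side of a gained region was itself gained in 7.63% of 3435 cases, against the 3.57% of all regions that were gained, and was lost in 1.57%, against 3.34%. A region of 1 resistant list came next in 38.1% of cases (25.6% of all regions) and one of 1 parental list in 12.95% (24.7%). Lost regions showed the mirror image, with 7.11% lost and 1.68% gained neighbours. Of the 1-list neighbours of gained regions 74.6% were resistant, next to 31.2% beside lost regions, and this share was above that of the chromosome as a whole on 13 of 13 chromosomes, by 15.5 to 29.5 percentage points. Gained neighbours are members themselves, and the other classes, though not used in choosing the members, were read from the same 4 lists. Regions of 1 resistant list leaned alike. Their neighbours were of 1 resistant list in 32.3% and of 1 parental list in 18.3% of cases, and gained in 5.32% and lost in 2.03%.

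The largest cluster was chr16:21614094-21633366, with 6 gained regions in 19.3 kb. It held 9 peaks in each resistant library, covering 5.99 and 12.004 kb, and 3 and 1 peaks in the parental libraries, covering 1.93 and 0.448 kb. Its members stood at percentiles from 1.52 to 67.7 in replicate 1 and from 6.72 to 64.1 in replicate 2, so the cluster was made of weak and middling peaks.

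Clusters of 5 were chr8:126451235-126473551, chr11:123007939-123025048 and chr14:100850759-100876992. The chromosome 8 cluster held gained regions of 11.1 kb in all, and 1 parental peak of 0.908 kb. The chromosome 11 cluster held 6 and 5 resistant peaks covering 3.40 and 5.60 kb and 0 peaks in both parental libraries. In the chromosome 14 cluster the resistant peaks covered 5.32 and 8.45 kb and the parental peaks 0.93 and 1.45 kb. Of the 8 clusters of 4, the one with the largest summed width of gained regions was chr8:121336259-121350025, which held 0 parental peaks. In these clusters both resistant libraries covered more than either parental library, as the rule on their members makes likely.

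The longest runs of gained regions, with no other merged region between, had 4 members. They were chr16:8952080-8959087, where 4 gained regions of 907 to 1921 bp filled 5.81 of 7.01 kb, and chr11:57791354-57797962, where 4 regions of 781 to 1302 bp filled 3.95 of 6.61 kb. Of 11 runs of 3, the one with the longest span was chr13:106353936-106388007, spread over 34.1 kb. In all, 247 gained regions were in 116 runs of 2 or more, and for lost regions 207 were in 93.

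The densest stretch lay on chromosome 8 and was singled out after its values were seen. With links of 50 kb, 20 gained regions joined into chr8:126403976-126646836, a stretch of 242.9 kb. Parental peaks covered 13.97 kb (19 peaks) and 26.3 kb (23 peaks) of it, and resistant peaks 81.1 kb (76 peaks) and 99.9 kb (49 peaks). Gained regions made up 34.6 kb, 26 further regions were in 1 resistant list and 4 in 1 parental list, and 0 were lost. The 7 regions of all 4 lists there, which the rule did not use, covered 11.9 and 18.5 kb in the parental libraries and 34.8 and 47.7 kb in the resistant ones. Both resistant values were above both parental ones, within each replicate number too.

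**Figure D3:**
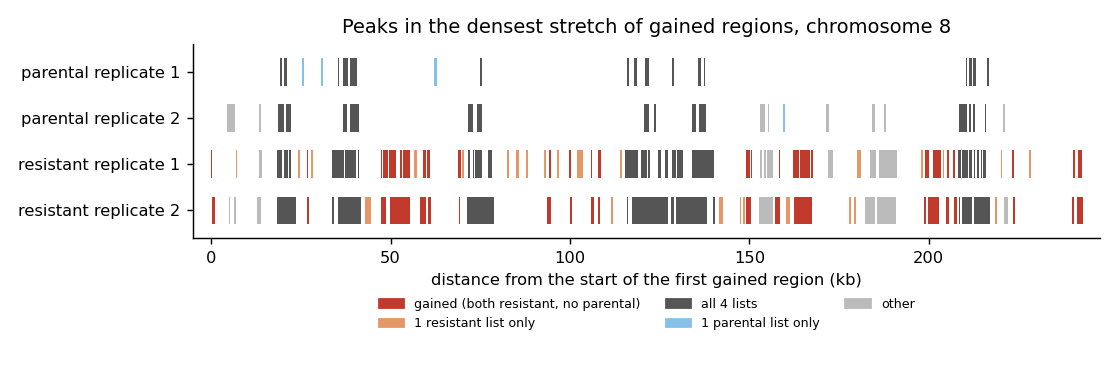
Peaks of the 4 libraries along the densest stretch of gained regions on chromosome 8 (x axis, kb from the start of the first gained region; 1 row per library), coloured by class of the merged region. Resistant peaks cover 81.1 and 99.9 kb and parental peaks 13.97 and 26.3 kb, and the 7 regions of all 4 lists are also wider in the resistant rows.

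In windows of 1 Mb, 694 of 1400 windows with any region held a gained one, 98 held 5 or more and 6 held 10 or more; 5 windows held 10 or more lost regions. The 6 windows began at 126 Mb of chromosome 8 (21 gained, 2 lost), 11 Mb of chromosome 16 (15 and 2), 76 Mb of chromosome 17 (12 and 1), 48 and 52 Mb of chromosome 20 (11 and 3, and 11 and 2) and 110 Mb of chromosome 13 (10 and 1). They were also rich in regions of any class, with 117 to 174 merged regions each, where the 1400 windows shared 48074. Gained regions were 6.90% (chromosome 17) to 14.9% (chromosome 8) of these, against 3.57% over the 13 chromosomes. In the chromosome 16 window the 22 regions of all 4 lists covered 36.5 and 63.1 kb in the parental libraries and 77.1 and 72.0 kb in the resistant ones. In the chromosome 17 window they covered 121 and 132 kb, and 138 and 162 kb. Both resistant values were also above both parental ones in the chromosome 8 window and the chromosome 20 window at 48 Mb. The lines overlapped in the chromosome 20 window at 52 Mb (80.3 and 118.7 kb parental, 92.4 and 146 kb resistant). They overlapped in the chromosome 13 window too (41.9 and 58.2 kb parental, 48.8 and 83.3 kb resistant). In each of the 6 windows more 1-list regions were resistant than parental, with 47 resistant and 17 parental on chromosome 16 and 50 and 8 in the chromosome 20 window at 52 Mb. The windows were chosen on their gained regions, so these values are a description.

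The 13 chromosomes were labelled as a reference, and over all of them gained and lost regions were near balance (51.7% of both classes were gained). Single chromosomes differed, with a gained share from 43.4% on chromosome 17 to 74.1% on chromosome 14, and of 47.8% to 49.0% on chromosomes 1, 4 and 8. Gained regions outnumbered lost ones on 7 of 13 chromosomes, most on chromosome 14 (83 against 29), chromosome 16 (149 against 66), chromosome 18 (75 against 36), chromosome 20 (77 against 39) and chromosome 21 (28 against 15). Chromosomes 13 (85 against 71) and 15 (90 against 71) were closer to balance. Lost regions outnumbered gained ones on chromosomes 1 (309 gained, 337 lost), 4 (163, 173), 5 (199, 228), 8 (179, 186), 11 (149, 183) and 17 (132, 172). With the same number of best peaks taken from each list, gained regions outnumbered lost ones on 12 of 13 chromosomes, the exception being chromosome 17 (140 gained, 147 lost). That number was 52367, so low-scoring peaks were dropped mainly from the parental lists (54810 and 57975 peaks). The resistant lists (52367 and 52856 peaks) stayed nearly whole, which favours gained regions by construction. Without a parental library the number of chromosomes with more gained than lost regions was 0, and without a resistant one 13, since the line left with 1 list then needs a peak in that list alone.

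As a share of each chromosome's merged regions, gained regions ranged from 2.95% on chromosome 4 to 5.40% on chromosome 16. Per Mb of the span covered by peaks they ranged from 0.726 on chromosome 21 to 1.65 on chromosome 16. Regions found in a single library moved with this balance. The resistant share of 1-list regions was between 61.9% and 64.4% on chromosomes 14, 16, 18, 20 and 21, and between 44.5% and 51.5% on chromosomes 1, 4, 5, 8, 11 and 17. Across the 13 chromosomes the 2 shares ranked alike (rho 0.87, a description over chromosomes of the same 4 libraries). What part this chromosome-wide lean had in the gained count was not tested. The median width of gained regions hardly varied with chromosome (900 to 1061 bp).

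**Figure D4:**
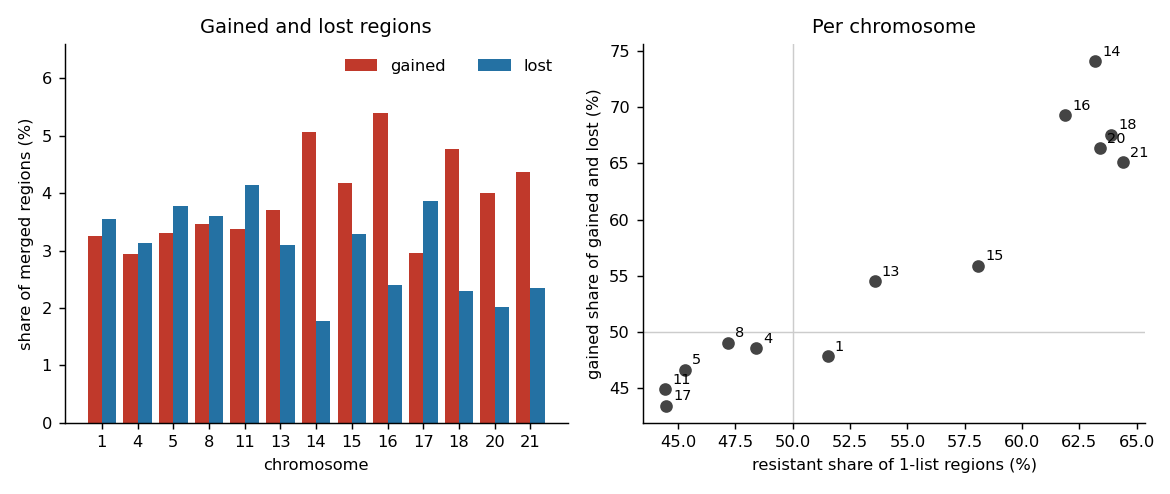
Left, gained and lost regions as a share of each chromosome's merged regions (%). Right, for each chromosome, the gained share of gained and lost regions (y axis) against the resistant share of regions found in 1 library (x axis); chromosomes 14, 16, 18, 20 and 21 lie at 65.1% or more on the y axis and 61.9% or more on the x axis.

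Peaks around gained regions were not themselves used by the rule, but the gained class that places them was drawn from the same 4 lists. Within 50 kb of gained regions, leaving out those regions, lay 27.7% and 25.7% of the covered length of the parental libraries and 33.2% and 29.3% of that of the resistant ones. The means were 26.7 ± 1.45% (SD, n = 2) and 31.3 ± 2.80%, a ratio of 1.17 (0.23 on the log2 scale), and the groups did not overlap. With a library left out and the classes redrawn, the log2 ratio turned to -0.12 without resistant replicate 1 and to -0.08 without resistant replicate 2, and was 0.18 and 0.02 without parental replicate 1 and 2. An exact two-sided permutation test over the 4 libraries gave p = 0.333, the smallest that 2 against 2 allows, so no test at 0.05 could pass. The test kept the classes fixed, so its p does not allow for their choice from the same lists. Around lost regions, chosen the opposite way, the log2 ratio was -0.23. Within replicate numbers the log2 ratio was 0.26 for replicate 1 and 0.19 for replicate 2. The resistant shares were both above the parental shares on 11 of 13 chromosomes, the exceptions being 14 and 16. The share of peak numbers overlapped, with 25.5% and 23.1% in the parental and 29.9% and 24.99% in the resistant libraries (exact p = 0.667).

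The 2823 regions of all 4 lists within 50 kb of gained regions were wider than those elsewhere in all 4 libraries, and more so in the resistant ones. Their median width was 1585 and 2158 bp in the parental libraries, against 1423 and 1906 bp elsewhere, and 1555 and 2624 bp in the resistant libraries, against 1172 and 2077.5 bp. On the log2 scale the difference between near and elsewhere was 0.17 ± 0.017 (SD, n = 2) in the parental and 0.37 ± 0.050 in the resistant line. Around lost regions the order turned, at 0.33 ± 0.026 and 0.14 ± 0.0074. In each of these comparisons the groups did not overlap, and the exact p was 0.333. The classes were again drawn from the same lists, so these values are a description. Of the 1-list regions within 50 kb of gained regions 65.8% were resistant (4155 of these and 2163 parental), compared with 45.7% elsewhere.

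**Figure D5:**
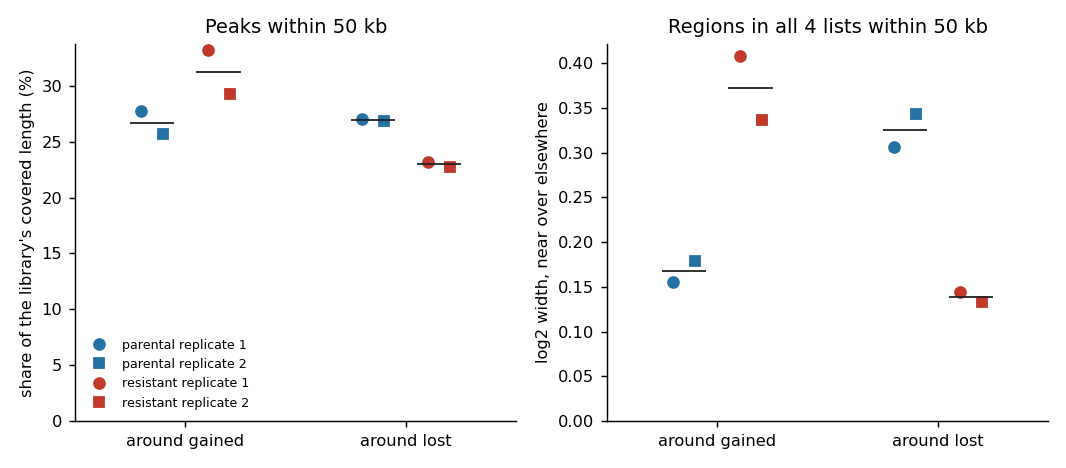
Left, share of each library's covered length (y axis, %) within 50 kb of gained or of lost regions, those regions left out. Right, log2 of the median width of regions in all 4 lists near gained or lost regions over that elsewhere; points are libraries and bars the means of 2, and the resistant points lie above the parental ones around gained regions and below them around lost ones in both panels.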

How the data were processed

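H3K27ac chromatin immunoprecipitation was measured in 4 libraries, grouped by their titles. Cells were fixed in 1% formaldehyde for 10 min and read as 150-bp pairs, per the labels' protocols. The submitters' processing notes name STAR, RSEM, DESeq2 1.40.2, GRCh38 and hg19 without roles. Each library has its own deposited peak list, giving a position and the authors' score for every peak. The caller, its thresholds and any use of inputs were not given in the sources used here. Peaks on chromosome 1 end at up to 249240417, and coordinates were read as hg19 and are printed 1-based.

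Peaks sharing 1 bp or more in any list were merged with Python 3.11.15 and pandas 2.3.3, checked on made-up peaks. A region's score is that of its highest peak in a list. Flank peaks were assigned by their midpoint, and permutation tests used scipy 1.17.1. The alternatives were a score of 5 or more, equal list lengths, cover of 50%, merging within 500 bp, links of 5 and 50 kb, flanks of 20 and 100 kb, all chromosomes and leaving out each library; the replicate block was added after seeing the data. Named regions were the 10 highest by weaker percentile, the highest per chromosome, the 5 widest, the 5 largest clusters, the 3 longest runs, and 3 on each side of the threshold. The chromosomes and the class of regions were chosen with earlier results of these data known.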

Additional observations from a re-analysis of the deposited data

How the results depend on the processing

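A score of 5 or more left 1102 gained and 847 lost regions, a median width of 1317.5 bp, 13.8% of gained regions within 12.5 kb of another and 41.3% within that distance of a region in all 4 lists; 580 of the 1718 members were still gained. Cover of 50% of the region gave a median of 1173 bp and 23.3% near a region of all 4 lists, and 1021 members were still gained. Merging within 500 bp gave 19.6% within 12.5 kb of another and 49.1% near a region of all 4 lists. With equal list lengths 1701 members were still gained, and gained regions outnumbered lost ones on 12 chromosomes in place of 7. This setting cut mainly the parental lists and left resistant replicate 1 whole. Most members were thus bound to stay gained, and the balance was moved towards gained regions by construction. Links of 5 and 50 kb gave 15.7% and 43.8%, and all chromosomes 3055 gained regions.

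Leaving out each library gave 2722 to 8667 gained and 2107 to 9577 lost regions, median widths of 434 to 1094 bp, 28.6% to 57.3% within 12.5 kb of another, 54.6% to 57.3% near a region of all 4 lists, and 0 to 13 chromosomes with more gained than lost regions. The class of the line with 1 library then needs only 1 list, which enlarges it by construction. The log2 ratio of covered length around gained regions (0.23) ranged from -0.12 to 0.18 when each library was left out and its classes redrawn, and turned to -0.12 without resistant replicate 1 and -0.08 without resistant replicate 2; the cause was not tested. It was 0.36 and 0.15 with flanks of 20 and 100 kb, and 0.23 with a replicate block (exact p = 0.5 by sign flips, the smallest for 2 pairs), and 2 pairs cannot show whether the numbers pair the libraries. Of 23 named regions, 20 were still gained with scores of 5 or more and 22 with equal list lengths. Cover of 50% kept 16 of them and merging within 500 bp kept 22. All 23 stayed gained with any library left out, which is fixed in advance, since the rule then asks for less.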
